A study of Mus musculus with 6 samples.

Results

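*Mitf*, its 3 relatives *Tfeb*, *Tfe3* and *Tfec*, and 6 genes of the melanocyte lineage (*Pmel*, *Tyr*, *Tyrp1*, *Dct*, *Sox10* and *Kit*) were examined in cultured fibroblasts from wild-type and *Hotair* knockout mice. All probe sets that the array's annotation table assigns to these 10 genes were taken, which gave 18 of 45037 non-control probe sets and 10 of 18193 named genes. A probe set is a group of short probes that together read the 3′ part of a transcript, and its value is given on the log2 scale, so that a difference of 1 is a doubling. The cells were tail tip fibroblasts of neonatal mice, either wild type for *Hotair* or *Hotair* knockout, with both genotypes backcrossed to C57BL6 to over 97% similarity, and 3 arrays were made per genotype. *Hotair* is a long noncoding RNA of the Hoxc cluster. The labels describe neither the deleted sequence nor the culture conditions. Whether a genotype's 3 arrays stem from different animals is not labelled either, so their spread may be technical. The genes were chosen by measured values, with the difference of *Mitf* between these genotypes in view. The differences of the 10 genes are therefore given as a description, without a test.

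The Mitf family consists of basic helix-loop-helix leucine zipper factors that bind DNA as homodimers or as dimers with each other, at short E-box sequences. *Mitf* is the master factor of melanocytes, where it switches on the enzymes that make melanin. It is also active in osteoclasts, mast cells and the retinal pigment epithelium. *Tfeb* and *Tfe3* are broadly expressed and drive genes of lysosomes and autophagy. Nutrient signalling through mTORC1 keeps these proteins in the cytoplasm, a step that RNA levels do not show. Fibroblasts of the skin lie beside melanocytes and supply the Kit ligand, but they are not pigment cells themselves.

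The cultures carried the RNAs of fibroblasts. The 14 measured fibroblast markers, such as collagens and vimentin, had mean levels from 7.95 to 14.7, against 3.43 to 6.86 for 19 genes of distant tissues such as lens, liver and sperm, which serve as a reference for dim probe sets. Probe sets differ in how brightly they report the same amount of RNA, so this range locates the background only roughly. Fibroblast markers themselves leaned upward in knockout. Of the 14 genes 11 were above 0, with a median of 0.44, against 51.1% of all genes above 0. *Dcn* and *Lum*, proteoglycans of the matrix, were at 3.10 ± 1.09 and 2.64 ± 1.06 (SE), while *Vim* and *Fn1* were lowest at −0.24 and −0.18. The surface marker *Thy1* measured 12.15, 4.65 and 7.17 on the wild-type arrays and 11.71, 10.54 and 10.28 on the knockout arrays (replicates 1, 2 and 3, here and in every such sequence of values). Replicate 1 of both genotypes stood apart. Its 19 proliferation genes had a median of −1.59 in wild type and −1.38 in knockout relative to each gene's mean, against 0.54 to 1.05 on the other arrays. Between genotypes 16 of these 19 were above 0, with a median of 0.39 that ran from −0.52 to 1.17 when 1 array was left out. *Mcm6* and *Mcm3*, replication helicase subunits, were at 0.80 and 0.79, and *Rrm2* and *Cdk1* at −0.64 and −0.17. The part of these shifts in the values of *Mitf* and of the lysosomal genes was not tested. Knockout replicate 1 also had raised 3′ minus 5′ differences of the control transcripts, which can accompany RNA breakdown (0.63 for *Actb* and 0.75 for *Gapdh*, against at most 0.21 and −0.03 elsewhere). *Hotair* itself was not analysed here, and the labelled genotypes rest on the labels alone. The fit over all probe sets called 0 of 45037 at an adjusted p of 0.05 (0%, limma with Benjamini-Hochberg adjustment), with 2406 at an unadjusted p under 0.05 (5.34%). None of the 18 probe sets studied here was among the calls.

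Both probe sets of *Mitf* had higher means in the knockout cells, with a far larger difference on the brighter. The brighter probe set (1455214_at) read 6.74, 7.22 and 7.71 in wild type, against 8.51, 8.92 and 8.80 in knockout. Every knockout value lay above every wild-type value, and replicate 1 was the lowest array of each genotype. The means were 7.22 ± 0.48 and 8.74 ± 0.21 (SD, n = 3), a difference of 1.52 ± 0.27 (SE) or 2.87-fold. By replicate number the differences were 1.77, 1.69 and 1.09, and leaving out 1 array gave 1.28 to 1.76. All 3 knockout values lay above all wild-type values for 4.48% of all probe sets and below them for 4.43%, and 376 probe sets had a larger difference than *Mitf*. These 376 are 0.835% of all probe sets.

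The other *Mitf* probe set (1422025_at) gave a smaller difference. It read 5.64, 5.60 and 6.21 in wild type, against 5.96, 5.99 and 6.32 in knockout. Wild-type replicate 3 was above knockout replicates 1 and 2, so the groups overlapped. The difference was 0.28 ± 0.22 (SE), from means of 5.82 ± 0.34 and 6.09 ± 0.20 (SD, n = 3), and by replicate number it was 0.32, 0.39 and 0.12. This probe set lies within the range of the genes of distant tissues. Leaving out 1 array moved its difference to between 0.16 and 0.47. Both probe sets were thus higher in knockout at each replicate number, by very different amounts.

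*Mitf* is known to be transcribed from several starts, and the start nearest the exons shared by all isoforms is known as the melanocyte promoter. The RefSeq table of GRCm38.p6 holds 3 of its starts, spread over 184725 bases of chromosome 6. The probe sets read the 3′ part of the transcript, and which start the fibroblast RNA came from was not measured. The last of these starts is shown because cAMP signalling is a known route to *Mitf* in melanocytes. It lies at chr6:97991533-97991832 on the plus strand, printed 5′ to 3′ from 250 bases before to 50 bases after the start. Capitals mark a cAMP response element (TGACGTCA, searched on both strands; it reads the same on both), which 1.79% of all 32851 promoters of this length hold.
Mitf, last start: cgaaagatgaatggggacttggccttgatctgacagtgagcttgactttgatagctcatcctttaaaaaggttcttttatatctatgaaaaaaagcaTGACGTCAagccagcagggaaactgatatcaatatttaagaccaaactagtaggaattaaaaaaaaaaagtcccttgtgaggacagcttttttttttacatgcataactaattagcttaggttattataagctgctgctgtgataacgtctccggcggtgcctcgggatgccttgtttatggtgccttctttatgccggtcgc
The element begins at position −153 from the start and is absent from the windows of the other *Mitf* starts. Neither E-box sequence searched (CATGTG and CACGTG, both strands) occurs in any of the 3 windows.

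**Figure D1:**
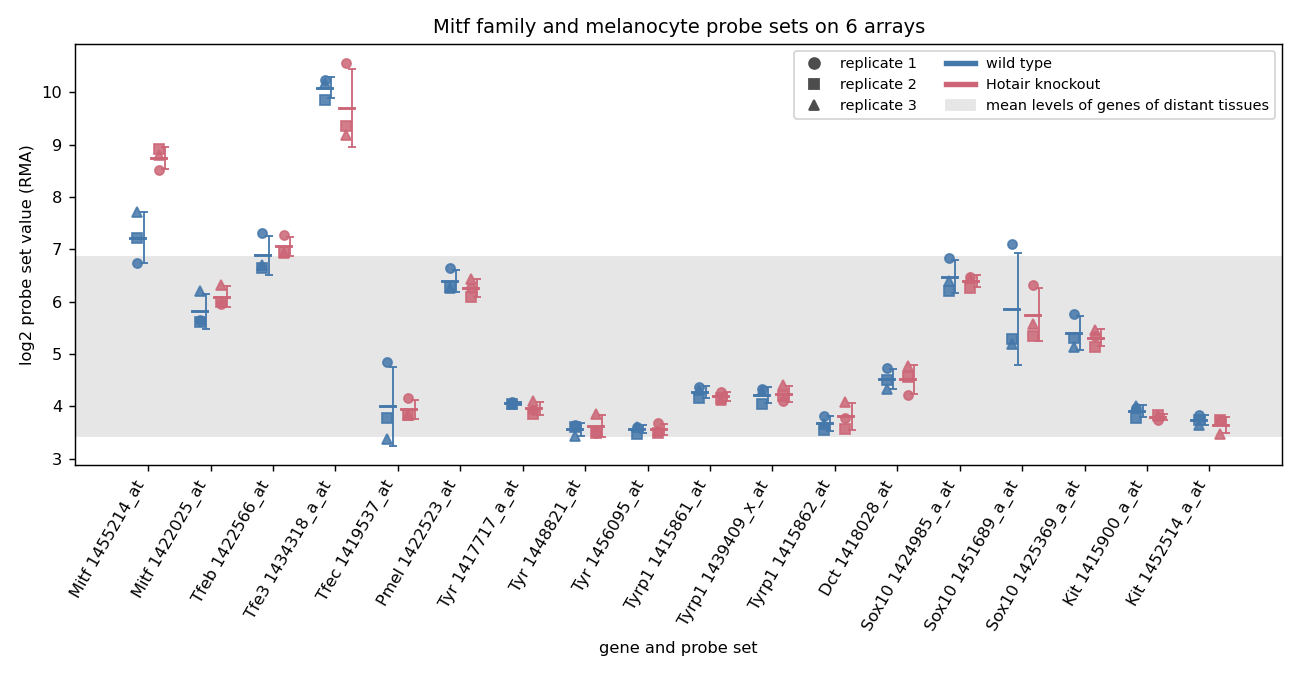
Log2 value of each of the 18 probe sets on the 6 arrays; circles, squares and triangles are replicates 1, 2 and 3, horizontal lines are means and bars are 1 SD (n = 3). The grey band spans the mean levels of 19 genes of distant tissues (3.43 to 6.86). The brighter Mitf probe set is the only member whose knockout values (8.51 to 8.92) all lie above the wild-type values (6.74 to 7.71).

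The relatives of *Mitf* did not share its pattern. *Tfe3*, a broadly expressed regulator of lysosomal genes, read 10.24, 9.86 and 10.18 in wild type, against 10.56, 9.36 and 9.18 in knockout. Knockout replicate 1 was the highest of all 6 arrays and knockout replicates 2 and 3 the lowest. The difference was −0.39 ± 0.39 (SE), from means of 10.09 ± 0.20 and 9.70 ± 0.75 (SD, n = 3), and by replicate number it was 0.32, −0.502 and −0.998. It was −0.82 without knockout replicate 1, the array with raised 3′ to 5′ control differences, and −0.22 and −0.13 without knockout replicate 2 or 3. *Tfe3* was thus opposite in sign to *Mitf* at replicate numbers 2 and 3 and of the same sign at 1.

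*Tfeb*, the other lysosomal regulator, read 7.32, 6.65 and 6.71 in wild type, against 7.27, 6.96 and 6.94 in knockout. Replicate 1 was highest in both genotypes, and the groups overlapped. Its difference was 0.17 ± 0.23 (SE), and it was 0.38 without wild-type replicate 1 and 0.04 without wild-type replicate 2. *Tfec*, a family member known from macrophages, read 4.84, 3.77 and 3.38 in wild type, against 4.15, 3.83 and 3.83 in knockout. These values lie in the dim range, and replicate 1 was again the highest array of each genotype. The difference of *Tfec* was −0.06 ± 0.39 (SE) and turned to 0.36 without wild-type replicate 1. Without replicate 1 of both genotypes, a setting chosen after seeing the data, the differences were 1.39 for *Mitf*, 0.27 for *Tfeb*, −0.75 for *Tfe3* and 0.26 for *Tfec*.

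The melanin enzymes were dim in both genotypes. *Tyr* encodes tyrosinase, the rate-limiting enzyme of melanin synthesis, and its brightest probe set (1417717_a_at) read 4.08, 4.05 and 4.04 in wild type, against 3.93, 3.85 and 4.10 in knockout. The other probe sets of *Tyr* read between 3.43 and 3.86, and its 3 differences were −0.10 ± 0.12, 0.06 ± 0.16 and −0.00 ± 0.12 (SE). *Tyrp1*, which acts on later melanin intermediates, read 4.37, 4.15 and 4.31 in wild type, against 4.28, 4.16 and 4.13 in knockout on its brightest probe set (1415861_at). Its 3 probe sets differed by −0.09 ± 0.13, 0.01 ± 0.15 and 0.13 ± 0.18 (SE). *Dct*, dopachrome tautomerase, read 4.72, 4.51 and 4.34 in wild type, against 4.22, 4.55 and 4.78 in knockout, a difference of −0.01 ± 0.19 (SE). Groups overlapped for all 7 enzyme probe sets, and no array stood out as pigment rich.

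These enzymes are the textbook targets of *Mitf*, and their promoters are shown because they carry its recognition sequence. The M-box TCATGTG, an E-box (CATGTG) preceded by T, was searched on both strands of the RefSeq promoters of GRCm38.p6. It is in capitals below, where CACATGA is the same sequence on the opposite strand.
Tyr, chr7:87493463-87493762, minus strand: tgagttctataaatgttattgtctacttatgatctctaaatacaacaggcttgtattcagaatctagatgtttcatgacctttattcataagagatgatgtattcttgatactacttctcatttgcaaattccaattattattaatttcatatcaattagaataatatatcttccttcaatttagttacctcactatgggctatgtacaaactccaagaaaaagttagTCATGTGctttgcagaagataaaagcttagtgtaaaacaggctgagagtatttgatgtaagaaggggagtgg
Tyrp1, chr4:80833963-80834262, plus strand: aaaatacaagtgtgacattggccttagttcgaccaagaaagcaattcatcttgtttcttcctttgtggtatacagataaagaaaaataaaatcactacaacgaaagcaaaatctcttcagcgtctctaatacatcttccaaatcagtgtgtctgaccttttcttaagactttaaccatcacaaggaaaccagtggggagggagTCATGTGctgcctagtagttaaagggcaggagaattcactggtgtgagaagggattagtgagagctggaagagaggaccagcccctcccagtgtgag
Dct, chr14:118052197-118052496, minus strand: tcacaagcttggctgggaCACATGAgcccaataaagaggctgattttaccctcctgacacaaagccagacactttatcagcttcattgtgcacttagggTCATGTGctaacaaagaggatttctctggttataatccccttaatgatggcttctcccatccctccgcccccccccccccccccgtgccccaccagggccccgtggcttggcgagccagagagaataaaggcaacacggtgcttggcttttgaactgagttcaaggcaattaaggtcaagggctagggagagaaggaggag
The M-box begins at position −22 in *Tyr*, at −47 in *Tyrp1* and at −232 and −151 in *Dct*. It occurs in 3.77% of all 32851 promoters. Of the 8 members with a promoter in the table, these 3 hold it, while the windows of *Mitf*, *Tfeb*, *Tfe3*, *Tfec* and *Kit* do not. A match is a description of these letters and not a measured binding site. The RNAs of the 3 genes with an M-box remained in the dim range on the knockout arrays, where *Mitf* read 8.51 to 8.92.

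*Pmel* and *Sox10* lay near the upper end of the dim range. *Pmel* encodes the protein that forms the fibrils on which melanin is laid down. It read 6.64, 6.29 and 6.25 in wild type, against 6.26, 6.10 and 6.44 in knockout, a difference of −0.13 ± 0.17 (SE). *Sox10*, a neural crest factor that activates *Mitf* in melanocytes and is also needed in Schwann cells, had 3 probe sets with differences of −0.08 ± 0.20, −0.09 ± 0.20 and −0.11 ± 0.58 (SE). Its most variable probe set (1451689_a_at) read 7.10, 5.28 and 5.19 in wild type, against 6.32, 5.35 and 5.58 in knockout. Replicate 1 of both genotypes was thus well above the other 4 arrays, and without wild-type replicate 1 the difference of this probe set turned to 0.51. The median of the glial markers moved the same way, though not every marker did. The 10 measured Schwann and neural crest glia markers had medians of 0.82 and 1.03 on the replicate 1 arrays of wild type and knockout relative to each gene's mean, against −0.59 to −0.40 on the other arrays. *Ngfr*, a receptor of immature Schwann cells, read 8.52, 5.14 and 4.94 in wild type, against 7.37, 4.95 and 5.17 in knockout. *Pmp22* was instead lowest on replicate 1, at 10.77, 10.94 and 10.82 in wild type, against 10.59, 11.72 and 12.01 in knockout. *Gfap* stayed between 4.98 and 5.31. Between genotypes 5 of the 10 were above 0 and 5 below, with *Mbp* and *Pmp22*, myelin genes, highest (0.74 and 0.59) and *Ngfr* and *Foxd3* lowest (−0.37 and −0.22). The other probe sets of *Mbp* (8 in all) lay between −0.15 and 0.18. *Mitf* ran opposite to the median of the glial markers, with replicate 1 lowest in each genotype. In RNA of whole cultures, fewer cells of a type and less RNA per cell cannot be told apart, and the part of glial cells in these values was not tested.

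*Kit* was at the bottom of the range while the gene for its ligand was bright. *Kit* encodes the receptor tyrosine kinase of melanoblasts, mast cells and germ cells. Its brighter probe set (1415900_a_at) read 3.96, 3.77 and 3.998 in wild type, against 3.74, 3.83 and 3.82 in knockout. Its 2 probe sets differed by −0.11 ± 0.12 and −0.09 ± 0.14 (SE). *Kitl*, the stem cell factor that fibroblasts present to melanoblasts, read 7.70, 10.24 and 10.78 in wild type, against 9.70, 11.43 and 12.58 in knockout. It was higher in knockout at each replicate number, by 1.999, 1.19 and 1.80, while the groups overlapped. Its difference was 1.66 ± 1.05 (SE), from means with SDs of 1.64 and 1.45 (n = 3), and the SE was 0.21 with the replicate number as a block. All 4 probe sets of *Kitl* were above 0, from 0.96 to 1.66. Replicate 1 was lowest in each genotype for *Kitl*, as it was for *Mitf* and for the median of the proliferation genes.

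Counted together, the members showed no common direction. Of the 18 probe sets 6 were above 0 and 12 below, with a median of −0.07 against −0.00 over all probe sets. Of the 13 probe sets of melanocyte genes 3 were above 0 and 10 below, all between −0.13 and 0.13. The counts turned to 8 above and 5 below without wild-type replicate 1 (from −0.09 to 0.51), and leaving out any other array gave 1 to 5 above. All 13 had mean levels within the range of the genes of distant tissues. The only non-overlapping member was the brighter *Mitf* probe set, 1 of 18, while 8.91% of all probe sets did not overlap in either direction.

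**Figure D2:**
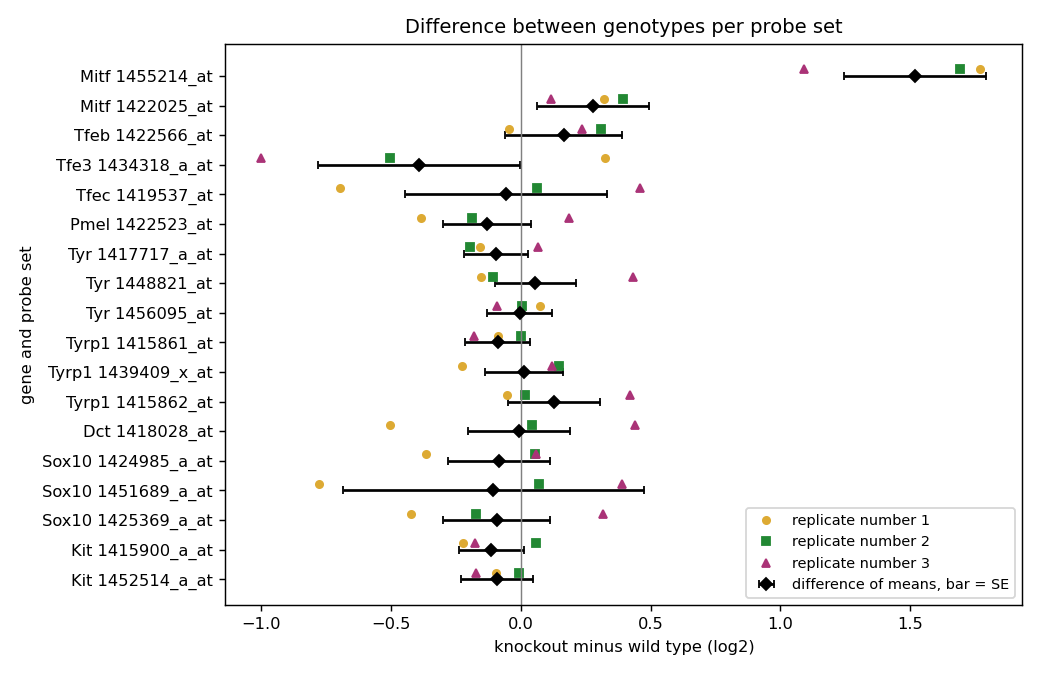
Difference between knockout and wild type (log2) for each of the 18 probe sets; diamonds are differences of means with SE bars, and coloured points are the differences by replicate number. The brighter Mitf probe set stands at 1.52 with all 3 replicate numbers above 1, while the 13 melanocyte probe sets lie between −0.13 and 0.13.

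The pattern of *Mitf* over the arrays was set against the other members without use of a correlation, since the arrays fall into clusters. Each probe set was centred on its mean over the 6 arrays, and the distance from the brighter *Mitf* probe set was the root mean square difference in log2 units. A perfectly flat profile would lie at 0.82, and the median over all single-gene probe sets was 0.88. The other *Mitf* probe set lay at 0.66, with 5.99% of 34944 probe sets nearer. *Tfeb* lay at 0.86, *Tfec* at 1.08 and *Tfe3* at 1.15, with 43.3%, 84.0% and 87.6% of probe sets nearer. The brightest probe sets of the melanocyte genes lay at 0.86 for *Dct*, 0.87 for *Kit*, *Tyr* and *Tyrp1*, and 0.93 for *Sox10* and *Pmel*. Of 17 member probe sets, 2 were nearer than a flat profile, the other *Mitf* probe set and 1 of *Tyrp1* (0.80), where 30.5% of all single-gene probe sets were. *Tfeb* (0.855) was thus only slightly nearer than the nearest of these melanocyte probe sets, that of *Dct* (0.863), and both were farther than a flat profile. The dimmer probe sets of *Tyr* and *Tyrp1* were nearer than *Tfeb*, at 0.80 to 0.83. *Tfec* and *Tfe3* were farther than the brightest probe set of each melanocyte gene. The mean was 1.03 for relatives and 0.89 for melanocyte genes. A dim probe set that hardly varies lies near the flat value by construction, so these means do not order the groups by likeness to *Mitf*.

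Centring within each genotype removes the difference between genotypes, through which *Mitf* came to notice. On that scale a flat profile lay at 0.30. The other *Mitf* probe set was at 0.21, with 4.45% of probe sets nearer, and *Tfeb*, *Tfe3* and *Tfec* were at 0.52, 0.63 and 0.75. The brightest probe sets of the melanocyte genes were at 0.29 for *Kit*, 0.33 for *Tyr*, 0.34 for *Tyrp1*, 0.40 for *Dct*, 0.43 for *Pmel* and 0.46 for *Sox10*. The mean was 0.63 for relatives and 0.38 for melanocyte genes. Within genotypes 2 of the 17 member probe sets were nearer than a flat profile, the other *Mitf* probe set and the brighter *Kit* probe set, where 18.1% of all probe sets were.

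Other genes on the array were much closer to *Mitf*. The nearest were sought at the brightest probe set of each gene, with predicted models and clone names passed over. The 6 nearest over all arrays were *Dclk1*, a microtubule-associated kinase (distance 0.26), *Eif2ak2*, the double-stranded RNA sensor PKR (0.28), *Flrt1* and *Lgr4*, a receptor for R-spondins (both 0.29), *Fgfr2*, a fibroblast growth factor receptor (0.29), and *Spats2l* (0.30). *Dclk1* read 8.21, 8.48 and 9.07 in wild type, against 9.37, 10.65 and 10.17 in knockout, and *Fgfr2* read 7.23, 7.84 and 7.66 and then 8.35, 8.90 and 8.82. All 6 had knockout values above every wild-type value, with differences of 1.11 to 1.56, which the choice by likeness to *Mitf* makes likely. Within genotypes the nearest were *Cpsf7*, *Zcchc2*, *Cpsf6*, *Tpp2*, *Tbc1d23* and *Sos1* (0.03 to 0.06), of which none separated the genotypes. *Cpsf6*, a factor of messenger RNA 3′ end processing, read 10.10, 10.67 and 11.13 in wild type, against 10.33, 10.77 and 10.73 in knockout. Among the markers of fibroblasts, proliferation and glia the nearest over all arrays were *Col3a1* (0.57), *Mcm6* (0.58) and *Pmp22* (0.63). The genes nearest *Mitf* on the array differed between the scales, with 0 of 6 shared.

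**Figure D3:**
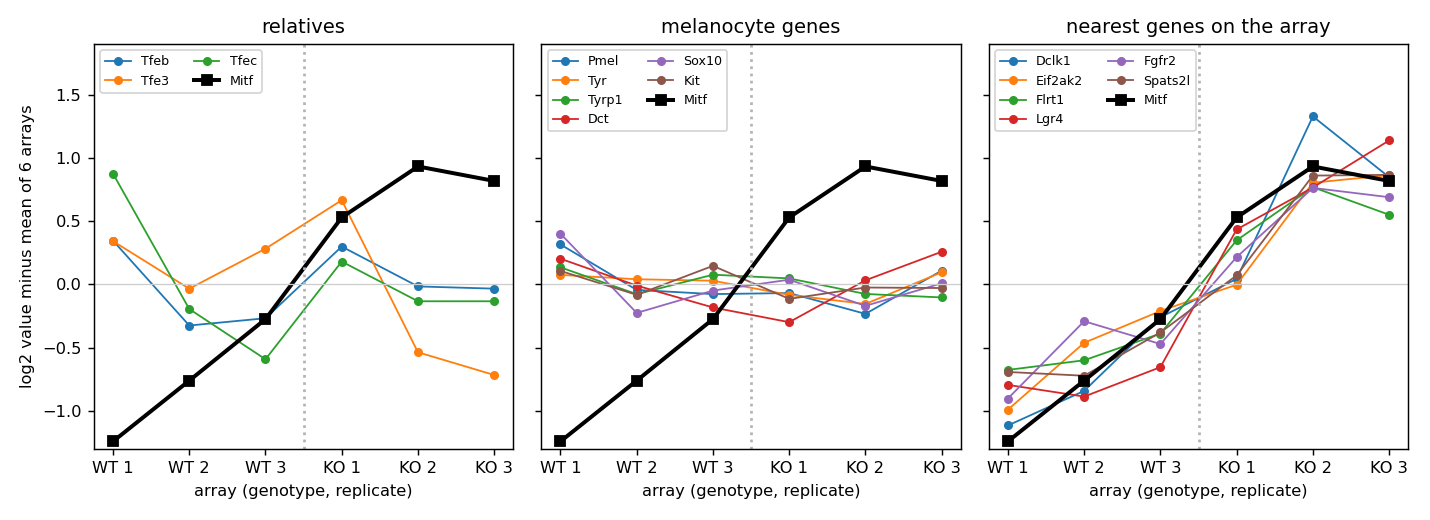
Log2 values centred on each gene's mean over the 6 arrays, for the brightest probe set of Mitf (black squares in each panel) beside its 3 relatives, the 6 melanocyte genes and the 6 nearest genes; lines join the values of a gene and imply no order of arrays. Mitf spans 2.17 from its lowest to its highest array, the melanocyte genes stay near 0, and Tfe3 is high on knockout replicate 1 and low on knockout replicates 2 and 3.

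The wider pigment programme did not shift in one direction. Of 18 measured genes of melanosomes and pigment 6 were above 0 and 12 below, with a median of −0.06, against 51.1% of all genes above 0, 48.9% below 0 and a median of 0.01. Markers that define melanocytes were dim: *Mlana* read 3.997 to 4.29, *Slc45a2*, a melanosome transporter, 4.65 to 5.15 and *Mc1r*, the melanocortin receptor, 4.16 to 4.62 over the 6 arrays. The larger values came from genes that other cells use too. *Gpnmb*, a lysosomal and melanosomal glycoprotein, read 8.16, 6.93 and 9.03 in wild type, against 8.60, 9.51 and 9.68 in knockout, a difference of 1.22 ± 0.59 (SE) with overlapping groups, and was the list's nearest gene to *Mitf* (0.62). *Rab27a*, which tethers melanosomes, was at 0.79 ± 0.48 on a probe set in the dim range (mean 4.90), and 1 of its 4 probe sets was below 0. *Myo5a*, its motor partner, was at −0.81 ± 0.64, and *Ap3d1*, an adaptor subunit for melanosome cargo, at −0.78 ± 0.20 with every knockout value below the wild-type values. Non-overlap occurred for 1 gene above and 2 below, where 5.56% and 4.38% of all genes did so. Without wild-type replicate 1 the counts turned to 12 above and 6 below, with a median of 0.10.

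Regulators upstream of *Mitf* in melanocytes gave a mixed picture. Of 15 measured 9 were above 0 and 6 below, with a median of 0.04. *Pax3* and *Foxd3*, neural crest factors, and *Ednrb*, the endothelin receptor of melanoblasts, were at 0.04, −0.22 and −0.13. *Zeb2*, a zinc finger factor of neural crest, read 9.33, 8.21 and 9.86 in wild type, against 10.06, 9.89 and 9.97 in knockout, without overlap. All of its 5 probe sets were above 0. *Adcy7*, an adenylate cyclase, was at −1.10 ± 0.31 (SE) with non-overlapping groups, and *Sox9* was at −0.70 ± 0.68, where 1 of 3 probe sets was above 0. At the brightest probe sets, groups thus did not overlap for 1 gene above and 1 below of 15, where 5.56% and 4.38% of all genes did so. *Zeb2* was also the list's nearest gene to *Mitf* (distance 0.61). *Kitl* lay at 1.02, farther than a flat profile (0.82), with 78.9% of probe sets nearer.

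Lysosome and autophagy genes, the main targets of *Tfeb* and *Tfe3*, lay mostly below 0 in knockout. Of 37 measured 30 were below 0 and 7 above, with a median of −0.35, beside 48.9% of all genes below 0. None was called. *Sqstm1*, an autophagy receptor, read 12.05, 11.62 and 13.43 in wild type, against 11.23, 11.15 and 10.61 in knockout, and *Naglu*, an enzyme that degrades heparan sulfate, read 8.74, 8.23 and 8.16 and then 9.31, 5.10 and 5.55. *Ctsa*, protective protein cathepsin A, and *Gaa*, acid alpha-glucosidase, were the highest at 0.68 ± 0.31 and 0.55 ± 0.31 (SE), although the other probe set of *Ctsa* was at −0.02. All knockout values were below wild type for 6 of 37 genes, where 4.38% of all genes were, and above it for 1, *Clcn7*, where 5.56% were. *Clcn7*, a lysosomal chloride transporter, was the list's nearest gene to *Mitf* (0.62). By replicate number the medians were −0.09, −0.38 and −0.66. At the same replicate numbers *Tfe3* was at 0.32, −0.502 and −0.998 and the brighter *Mitf* probe set at 1.77, 1.69 and 1.09. A part of *Tfe3* or *Mitf* in the values of the list was not tested. With knockout replicate 1 left out the list's median was −0.54, with knockout replicate 2 left out it was −0.23, and leaving out 1 array gave 25 to 33 genes below 0.

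The recognition sequence of *Tfeb* and *Tfe3* at lysosomal genes, the CLEAR element, contains TCACGTG. It was searched on both strands, where the palindrome TCACGTGA counts on each. The promoters of a gene with a low and a gene with a high difference are shown, with the element in capitals; in *Ctsa* the capitals also mark an M-box on the opposite strand.
Naglu, chr11:101069844-101070143, plus strand: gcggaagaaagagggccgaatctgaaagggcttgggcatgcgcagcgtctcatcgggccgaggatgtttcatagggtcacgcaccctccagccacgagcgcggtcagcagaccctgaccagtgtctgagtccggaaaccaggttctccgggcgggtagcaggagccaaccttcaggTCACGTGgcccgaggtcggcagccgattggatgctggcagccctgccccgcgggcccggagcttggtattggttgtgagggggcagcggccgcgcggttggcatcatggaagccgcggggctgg
Ctsa, chr2:164833523-164833822, plus strand: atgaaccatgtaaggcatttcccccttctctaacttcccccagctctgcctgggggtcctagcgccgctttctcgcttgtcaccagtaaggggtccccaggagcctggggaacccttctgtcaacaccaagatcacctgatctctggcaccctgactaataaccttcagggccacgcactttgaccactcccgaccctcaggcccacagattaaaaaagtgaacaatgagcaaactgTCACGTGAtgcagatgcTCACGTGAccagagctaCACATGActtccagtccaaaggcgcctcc
Among 30 list genes with a listed promoter, 14 hold the sequence, or 46.7%, against 4.29% of all 27025 genes there. The 14 genes with it had a median difference of −0.23, with 11 below 0, and the 16 without it a median of −0.38, with 14 below 0. The lower values were thus not limited to genes with this element in the window.

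Genes that control the Mitf family proteins through nutrients were balanced. Of 22 measured 11 were above 0 and 11 below, with a median of −0.01. *Rraga* and *Rragc*, the Rag GTPases that bring *Tfeb* and *Tfe3* proteins to the lysosome, were at −0.58 ± 0.15 and −0.47 ± 0.22 (SE), and *Rraga* read 11.69, 11.47 and 11.26 in wild type, against 10.82, 10.90 and 10.97 in knockout without overlap. *Lamtor5* is a Ragulator subunit that anchors the Rag GTPases, and *Ppp3cb* is another calcineurin subunit. At their brightest probe sets both had all knockout values above wild type, at 0.48 ± 0.20 and 0.44 ± 0.15 (SE). Non-overlap was thus 2 genes above and 1 below of 22, where 5.56% and 4.38% of all genes did so. *Ppp3ca*, a catalytic subunit of calcineurin, which activates *Tfeb*, was at 0.71 ± 0.34, and the nuclear exporter *Xpo1* at 0.52 ± 0.59. *Ppp3ca* was the list's nearest gene to *Mitf* (0.51), and all 3 of its probe sets were above 0. The probe sets of *Ppp3cb* differed in direction. Of its 5 probe sets 4 were above 0, and the other, with a mean level of 9.55, was at −0.30 ± 0.18 (SE). Groups overlapped on each *Ppp3cb* probe set except the brightest.

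Targets of *Mitf* outside pigment cells and markers of its other cell types followed no common direction either. Of 15 measured targets 5 were above 0 and 10 below, with a median of −0.06 and no non-overlapping gene. *Rhoq*, a small GTPase, was nearest *Mitf* (0.56) and was at 0.55 ± 0.34 (SE). *Cdkn1a*, a cell cycle inhibitor, read 13.63, 12.01 and 12.58 in wild type, against 13.63, 9.16 and 9.32 in knockout. *Dicer1* was at −0.98 ± 0.42 and *Cdkn2a* at 1.19 ± 0.76 (SE). *Ctsk*, the collagen-degrading cathepsin of osteoclasts, read 10.36, 7.85 and 8.89 in wild type, against 9.43, 11.88 and 11.97 in knockout. Its difference was 2.06 ± 0.92 (SE), but at replicate number 1 it was −0.93.

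Macrophage and osteoclast genes were above 0 for 14 of 17, with a median of 0.31, and 9 of 17 were above 0 without knockout replicate 1 (median 0.00084). *Acp5*, the tartrate-resistant phosphatase of osteoclasts, was highest on that array, with 5.51, 4.23 and 4.40 in wild type, against 9.46, 5.21 and 3.88 in knockout. Other macrophage genes were high there too, and 11 of the 17 genes had their highest value on it. *Tyrobp*, a myeloid signalling adaptor, read 9.14 on knockout replicate 1 and 4.88 to 5.45 elsewhere, and *Lyz2*, a lysozyme, read 10.57 and 5.30 to 7.98. The list's median relative to each gene's mean was 0.71 on this array and −0.36 to 0.07 on the others. The brighter probe set of the leukocyte gene *Ptprc* was dim on all arrays (3.84 to 4.44), and *Adgre1* of macrophages read 4.86 on knockout replicate 1 and 3.88 to 4.14 elsewhere. The other *Ptprc* probe set had a mean of 3.88 and a difference of 0.54, with 1.12 at replicate number 1. Without knockout replicate 1 the brighter *Mitf* probe set differed by 1.63. *Cd14* and *Ostm1*, the latter a partner of the lysosomal chloride channel, were at −1.97 ± 0.61 and −1.35 ± 0.56 (SE). Of 9 mast cell markers 6 were above 0 (median 0.06), and of 7 markers of retinal pigment epithelium 4 were (median 0.03). Among mast cell markers *Cpa3* and *Hdc* were highest (0.18 and 0.14) and *Gata2* and *Tpsb2* lowest (−0.20 and −0.10). Among those of retinal pigment epithelium *Rgr* and *Otx2* were highest (both 0.11) and *Ttr* and *Best1* lowest (−0.18 and −0.12). *Cpa3* (0.77) and *Rgr* (0.78) were nearest *Mitf* in these lists. The mast cell protease *Cpa3* read 3.79 to 4.27 and the receptor *Fcer1a* 3.36 to 3.59, both dim. *Kit*, which mast cells also carry, was dim as well.

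Other E-box factors outside the Mitf family did not move together. Of 16 measured 7 were above 0 and 9 below, with a median of −0.04. *Tfap4* and *Srebf2*, a regulator of cholesterol synthesis, were at 0.80 ± 0.46 and 0.59 ± 0.49 (SE). *Max*, the partner of Myc, read 9.52, 9.21 and 8.83 in wild type, against 8.04, 8.41 and 8.59 in knockout, without overlap, and *Mxi1* was at −0.44 ± 0.76. Groups did not overlap for 0 genes above and 2 below, *Max* and *Usf2* (−0.23), where 5.56% and 4.38% of all genes did so. *Tfap4* was nearest *Mitf* (0.54).

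**Figure D4:**
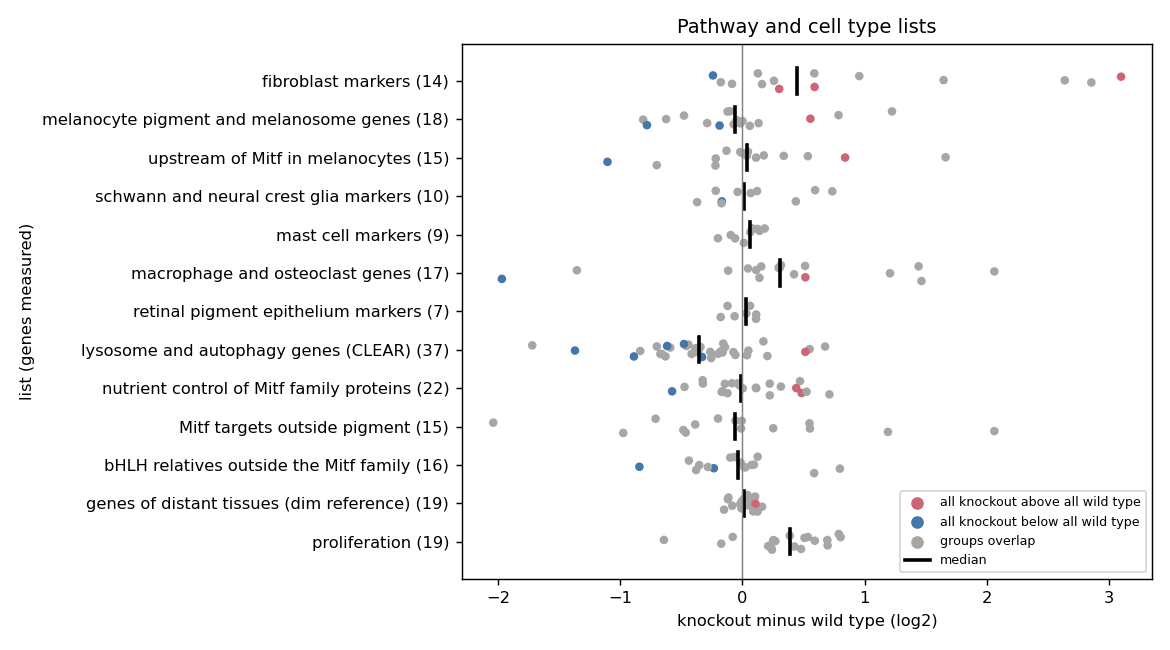
Difference between knockout and wild type (log2) of each gene in the pathway and cell type lists, at its brightest probe set; black lines are medians, red points have all knockout values above wild type, blue points all below, and grey points overlap. The lysosome and autophagy list has its median at −0.35 with 30 of 37 genes below 0, and the pigment list has its median at −0.06.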

How the data were processed

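Per the submitters' processing notes, the authors ran RMA under R 2.11.1, and the deposited log2 values give 1 summary per probe set and array. RMA equalises the intensity distributions of the arrays, so a change in total RNA cannot be seen. Probe sets were named from the platform's annotation table, and 34945 of 45037 non-control probe sets named a single gene. The fit across all probe sets used lmFit and eBayes of limma 3.58.1 (R 4.3.3), with genotype as its only term and Benjamini-Hochberg adjustment at 0.05. Lists took the brightest single-gene probe set of each gene. Named genes were all members, the 6 genes nearest *Mitf* on each scale, and in each list the 2 largest differences in each direction with the nearest gene, except among genes of distant tissues, which served as a reference only; any further gene was picked with its values known. Members and lists were chosen with earlier results of these data known. An exact permutation test of 3 against 3 arrays cannot go below 0.1.

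Replicate numbers are shared by the genotypes. Arrays with number 1, 2 and 3 deviated together from their genotype means (correlations 0.50, 0.49 and 0.25), so the numbers were taken to pair the arrays, although wild-type replicate 3 correlated better with knockout replicate 2 (0.33). With the replicate block limma called 0 probe sets, and the SE of the brighter *Mitf* probe set was 0.20. On simulated data with the spreads of the 45037 probe sets, the fit recovered 10% of probe sets changed by 1, 62% by 2, 66% by 3 and 78% by 4 (log2), with 6 false calls. Only the spreads were taken over, and recovery with deviations shared by arrays of the same replicate number was not tested. On the measured arrays the genotype fit called 0 probe sets, while 376 had a larger difference than the brighter *Mitf* probe set. Promoter sequences are RefSeq's, of GRCm38.p6, and 8 of 10 members had one. The alternatives comprised the replicate block, a trended and a robust prior, bright probe sets only, renormalisation, array weights, 1 probe set per gene, each array left out, and other centrings and measures of distance. Leaving out replicate 1 of both genotypes was added after seeing the data.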

Additional observations from a re-analysis of the deposited data

How the results depend on the processing

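With 3 arrays per genotype and dim probe sets for most members, small differences could not be resolved. The replicate block, the trended and robust priors, bright probe sets only and 1 probe set per gene leave a difference unchanged by construction. Left-out arrays, renormalisation and array weights can move it, and there the brighter *Mitf* probe set stayed between 1.28 and 1.76. Limma called 0 probe sets in each alternative with 6 arrays, the replicate block and a threshold of 0.1 included (2406 at an unadjusted p under 0.05 with genotype only). Leaving out 1 array gave 0 to 48 calls, the 48 without knockout replicate 1, and no member was called. Without replicate 1 of both genotypes, added after seeing the data, 1836 of 45037 probe sets were called. Of the 18 member probe sets 1 was among them, the brighter *Mitf* probe set. *Mitf* was chosen with this difference in view, so that call is no test of it. Of 219 recomputed differences of the other members 217 moved by less than the spread between replicates. The 219 include the alternatives that cannot move a difference, so this count overstates the stability. The median of the pigment list ran from −0.14 to 0.10 when 1 array was left out. The mean distance of the melanocyte genes from *Mitf* was 0.377 with centring within genotypes and 0.317 from the other *Mitf* probe set, and that of the relatives 0.633 and 0.560. A flat profile lay at 0.304 from *Mitf* within genotypes. The lysosome list stayed between −0.54 and −0.23.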
